A study of Mus musculus with 6 samples.

Results

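Adipocytes and osteoblasts arise from a shared mesenchymal progenitor. In adipocyte differentiation the transcription factors C/EBPβ and C/EBPδ are induced early, and C/EBPα and the nuclear receptor PPARγ then sustain each other and the fat cell programme. PPARγ binds DNA with a retinoid X receptor and drives genes of fatty acid uptake and storage, among them Fabp4, Lpl, Cd36 and Plin2, while Adipoq and Cfd encode proteins secreted by mature fat cells. The genes examined here were 4 regulators (Pparg, Cebpa, Cebpb and Cebpd) and 6 lipid-handling or secreted markers (Fabp4, Lpl, Cd36, Adipoq, Cfd and Plin2), taken by name from the platform annotation. Cfd had no probe with that single symbol and was not analysed here. The other 9 genes had 1 probe each, of 10500 probes on the array (8841 named genes), and all 9 could be tested.

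The cells were of the mouse pre-osteoblast line 2T3, kept in flat sealed cassettes called OptiCells. In the static group (n = 3 arrays) the cassettes were left unmoved, and in the simulated microgravity group (n = 3 arrays) they were turned on a Random Positioning Machine, which changes the direction of gravity continuously. Both groups shared the cell line and the cassette, and the labels do not state how long the exposure lasted. Nothing in the labels says that arrays of a group came from separate cultures, so the p-values cover the spread between these arrays alone, and that spread may be technical.

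Levels are given as intensity divided by the median of all probes on the same array, so a value of 1 is the array median. No detection calls were used, and a floor of 0.1 was applied before logarithms were taken. Each array held 10337 to 10432 values. Between 17.1% and 19.8% of them lay under the floor on 4 arrays, against 9.16% on static 2 and 6.44% on microgravity 2, so dim probes read higher on the latter pair. Of 19 osteoblast probes, 11 lay above the array median in at least 1 group. Alpl, Pth1r, Col1a1 and Col1a2 were among them, as was Mepe, a marker of late osteoblasts and osteocytes, at 2.4 in static cells. Ibsp, Phex and Dmp1 had static means of 0.230, 0.185 and 0.107. Of 10 listed adipocyte markers, 6 were measured. Adipoq, Retn and Lipe had means of 0.0732 to 0.138 in either group, while Pparg and Fabp4 were above the median. Slc2a4 lay between these sets, with group means of 0.637 (static) and 0.759 (simulated microgravity).

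Of the 9 genes, 0 passed the threshold of an adjusted p of 0.05 by limma, and 1 (Lpl) had an unadjusted p under 0.05. Of all 10146 probes, 0.276% had an adjusted p that low (0.187% with lower values in simulated microgravity, 0.0887% with higher ones) and 10.8% had an unadjusted p under 0.05. Lpl was also the only gene of the 9 whose groups did not overlap (11.1%), against 15.7% of all probes (7.57% with the microgravity values lower), so the share was near the background. Of the 9 genes, 5 had lower and 4 had higher values in simulated microgravity, and their median log2 change was -0.04, against 0.05 over all probes tested.

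The promoters of the regulators are shown first, because the Pparg probe cannot be assigned here to any of that gene's 3 start sites and because C/EBP proteins act on regulators of this set. RefSeq promoter entries (GRCm38.p6) were matched for 6 of the 9 genes, with 8 entries in all, and none was matched for Cebpd, Fabp4 or Lpl. The 250 bases before each start are printed 5′ to 3′ on the gene's strand, which is the plus strand for all 5. They lie at chr6:115360894-115361143, chr6:115362099-115362348 and chr6:115421816-115422065 for Pparg, from the most upstream to the most downstream start, at chr7:35119043-35119292 for Cebpa and at chr2:167688665-167688914 for Cebpb. Capitals mark exact matches, on either strand, to the motifs searched.
Pparg start 1: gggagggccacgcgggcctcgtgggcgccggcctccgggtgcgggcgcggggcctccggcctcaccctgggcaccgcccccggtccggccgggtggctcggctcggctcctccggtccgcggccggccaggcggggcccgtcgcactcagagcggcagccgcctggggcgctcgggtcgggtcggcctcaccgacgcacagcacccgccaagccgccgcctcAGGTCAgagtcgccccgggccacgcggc
Pparg start 2: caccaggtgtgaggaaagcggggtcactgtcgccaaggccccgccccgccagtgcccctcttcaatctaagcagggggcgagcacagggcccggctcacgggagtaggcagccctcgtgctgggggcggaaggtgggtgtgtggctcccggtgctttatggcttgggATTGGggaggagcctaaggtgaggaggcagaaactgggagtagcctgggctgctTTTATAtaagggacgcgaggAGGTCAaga
Pparg start 3: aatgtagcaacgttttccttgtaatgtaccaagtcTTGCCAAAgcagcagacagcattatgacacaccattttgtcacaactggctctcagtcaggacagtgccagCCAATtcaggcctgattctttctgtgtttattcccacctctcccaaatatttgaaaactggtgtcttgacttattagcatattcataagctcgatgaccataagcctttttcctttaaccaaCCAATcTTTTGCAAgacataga
Cebpa: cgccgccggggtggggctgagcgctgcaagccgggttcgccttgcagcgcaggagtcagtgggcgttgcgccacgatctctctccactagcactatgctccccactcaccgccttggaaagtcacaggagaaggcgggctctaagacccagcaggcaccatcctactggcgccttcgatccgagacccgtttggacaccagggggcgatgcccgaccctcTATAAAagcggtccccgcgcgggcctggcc
Cebpb: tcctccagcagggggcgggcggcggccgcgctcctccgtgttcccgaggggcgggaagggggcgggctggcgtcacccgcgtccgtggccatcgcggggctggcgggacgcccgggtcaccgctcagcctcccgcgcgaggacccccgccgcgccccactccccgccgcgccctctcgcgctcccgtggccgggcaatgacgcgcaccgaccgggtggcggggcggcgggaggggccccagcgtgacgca

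The motifs were the PPAR-RXR direct repeat AGGTCANAGGTCA, its single nuclear receptor element AGGTCA (which also lies within the repeat), the C/EBP motif TTGCNNAA, the CCAAT box CCAAT, the cAMP response element TGACGTCA and the TATA box TATAAA. The C/EBP motif was found in 1 of the 8 entries, the most downstream Pparg start, at bases 215 to 208 and 16 to 9 before the start, and it occurs in 9.56% of all 32851 promoter entries of the same length. That window also held CCAAT at bases 144 to 140 and 22 to 18. The middle Pparg start had AGGTCA at bases 9 to 4, CCAAT on the other strand at bases 83 to 79 and TATAAA on the other strand at bases 29 to 24. The most upstream start had AGGTCA at bases 28 to 23. AGGTCA was found in 4 of the 8 entries (both of these Pparg starts, Cd36 and Plin2), against 14% of all entries, and CCAAT in 5 of 8, against 33.8%. TATAAA was found in 2 of 8, the middle Pparg start and Cebpa at bases 30 to 25, against 12.4%. The direct repeat and the cAMP response element were in 0 of 8, and in 0.0335% and 1.55% of all entries. The Cebpb window held no match to any of the 6 motifs. The GC content of the Pparg windows was 82.4%, 63.6% and 40.8% from the upstream to the downstream start, and that of Cebpb was 81.6%. These matches describe letters in these windows only.

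**Figure D1:**
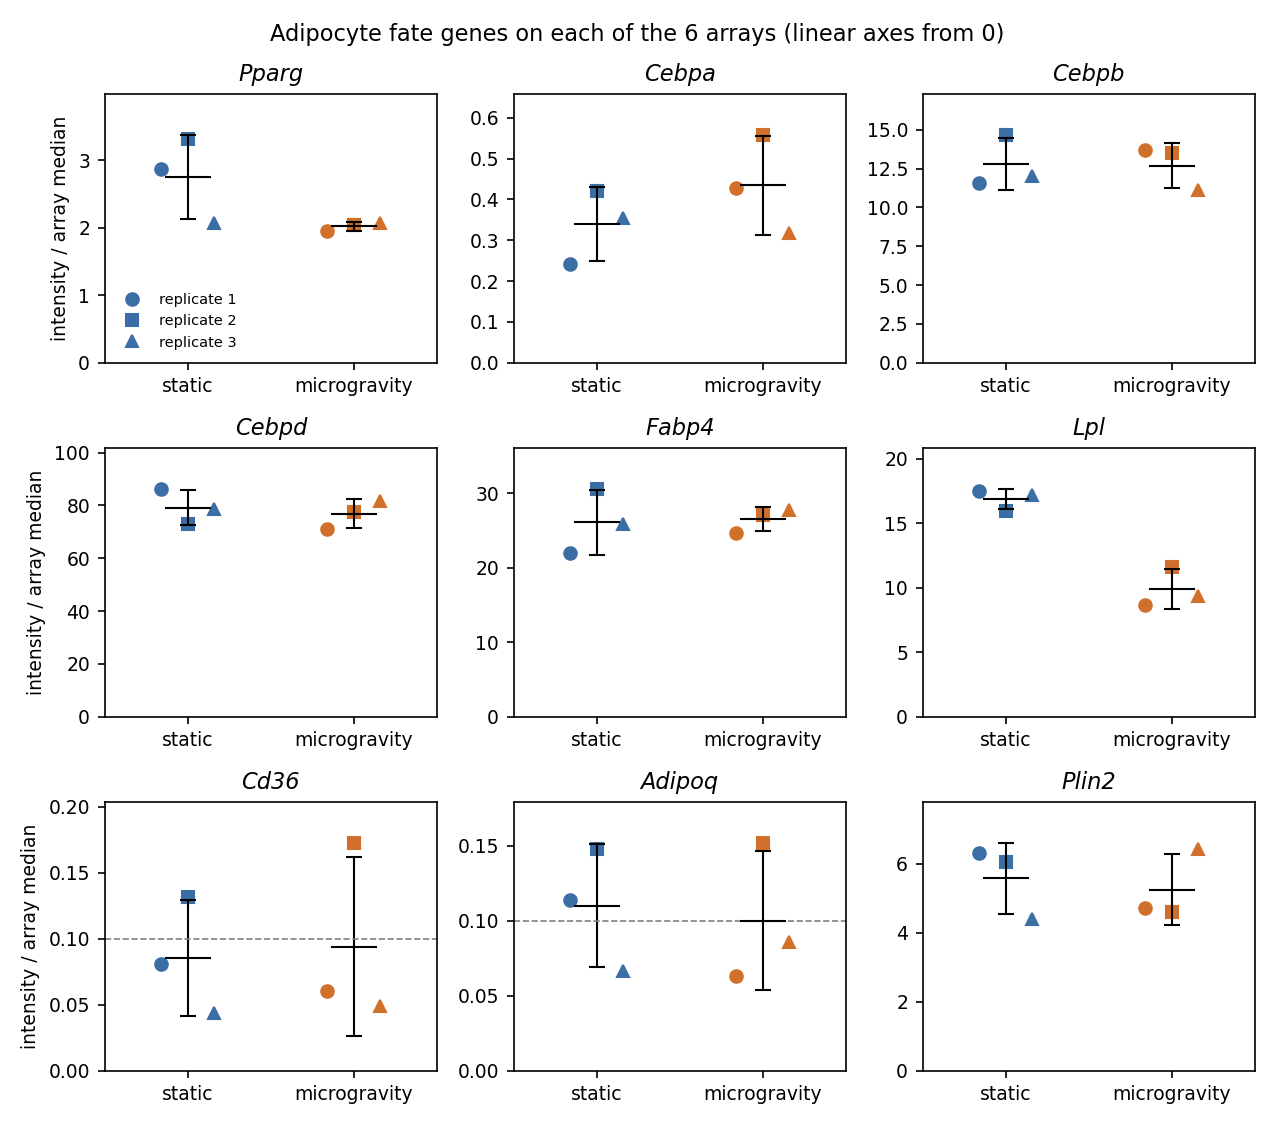
Intensity relative to the array median for each of the 9 genes on the 3 static (blue) and 3 simulated microgravity (orange) arrays. Circles, squares and triangles are replicates 1, 2 and 3, black bars are the mean and SD over 3 arrays, and dashed lines mark the floor of 0.1. Lpl is the only gene whose groups do not overlap, and Cd36 and Adipoq lie near the floor.

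Among the regulators, Pparg (probe 6047), which encodes the nuclear receptor PPARγ, had the smallest p. Its level was 2.87, 3.31 and 2.07 on static arrays 1 to 3 and 1.95, 2.04 and 2.07 on microgravity arrays 1 to 3. The static arrays 1 and 2 were higher than the rest, and static 3 lay inside the range of the microgravity arrays, so the groups overlapped. The means were 2.75 ± 0.628 (SD, n = 3) and 2.02 ± 0.0644 (SD, n = 3). On the log2 scale of the fit the ratio was 0.748. The log2 change of -0.42 (SE 0.21, 95% interval -0.91 to 0.08) did not pass (limma adjusted p = 0.58, unadjusted p = 0.0858). It was -0.61 without static 3 and -0.27 without static 2.

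Cebpa (probe 3486) encodes C/EBPα, the late C/EBP factor of fat cell differentiation. Its level was below the array median on every array, at 0.242, 0.421 and 0.355 in static cells and 0.427, 0.559 and 0.318 in simulated microgravity. The ranges overlapped, and the highest value of each group was on its replicate 2 array, where dim probes in general read higher. The 4032 probes with means under 0.5 of the array median had medians of 0.147 on static 2 and 0.168 on microgravity 2, against 0.095 to 0.115 on the other arrays. The part of this in the Cebpa values was not tested. The log2 change was 0.36 (SE 0.32, limma adjusted p = 0.857), and its 95% interval of -0.40 to 1.11 was the widest of the 9 genes. The change was 0.53 without static 2, 0.16 without microgravity 2 and 0.33 without both.

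Cebpb (probe 5269), the early factor C/EBPβ, was well above the array median and had nearly equal group means. It stood at 11.6, 14.7 and 12 on the static arrays and at 13.7, 13.5 and 11.1 on the microgravity arrays. Each group held values on either side of the other group's mean, and the means were 12.8 ± 1.68 and 12.7 ± 1.43 (SD, n = 3). The log2 change was 0.00 (SE 0.16), with a 95% interval of -0.38 to 0.38.

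Cebpd (probe 3487), the other early factor, C/EBPδ, gave levels of 86.4, 72.9 and 78.5 in static cells and 70.9, 77.6 and 81.8 in simulated microgravity. The highest value was static and the lowest was from simulated microgravity, with the other 4 interleaved. The log2 change was -0.04 (SE 0.16, 95% interval -0.42 to 0.33), which is a ratio of 0.97 with an interval of 0.746 to 1.26.

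**Figure D2:**
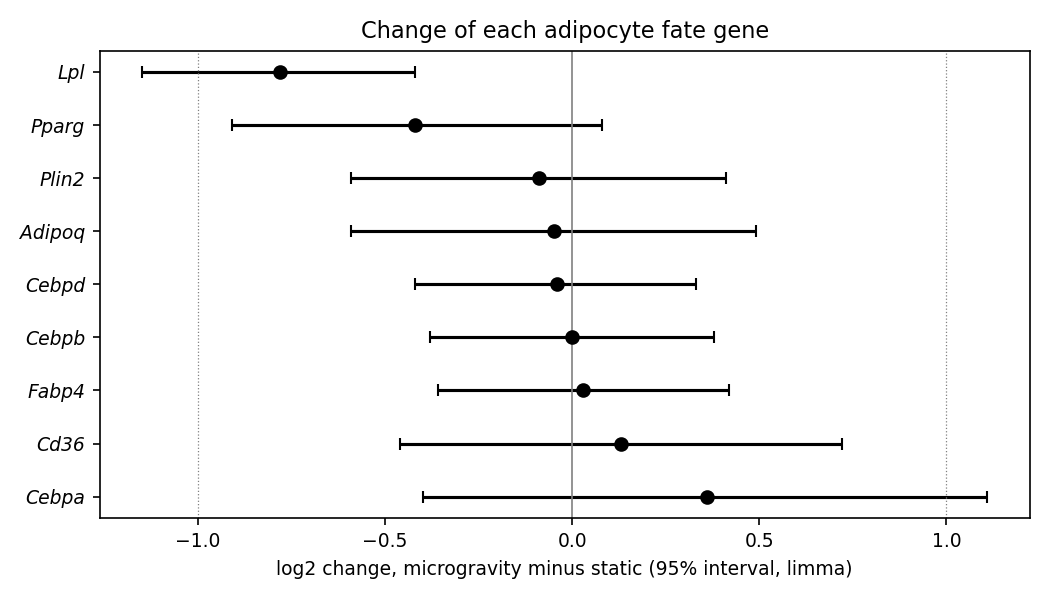
Log2 change of each gene, simulated microgravity minus static, with limma's 95% interval (3 arrays per group). Dotted lines mark a 2-fold change either way. Lpl has the lowest change, -0.78, and the intervals of the other 8 genes include 0.

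Among the markers, Lpl (probe 4164) stood lowest relative to static cells. It encodes lipoprotein lipase, the enzyme that releases fatty acids from circulating triglycerides, and is a PPARγ target that rises early in adipocyte differentiation. Its level was 17.5, 16 and 17.2 on the static arrays and 8.64, 11.6 and 9.39 on the microgravity arrays. All 3 microgravity values lay below all 3 static values. The means were 16.9 ± 0.804 and 9.89 ± 1.56 (SD, n = 3), which is 1.72-fold lower in simulated microgravity on the log2 scale of the fit. The log2 change was -0.78 (SE 0.15, 95% interval -1.15 to -0.42), with an unadjusted p of 0.00154 that ranked 143 of 10146 probes, and it did not pass over all probes (limma adjusted p = 0.109). It passed with array weights (log2 change -0.89, limma adjusted p = 0.044), and adjusted p-values ran from 0.044 to 0.38 over 17 alternatives. The log2 change was -0.69 to -0.91 with any 1 array left out. In RNA from whole cultures, fewer cells expressing a gene and less RNA per cell cannot be told apart.

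Fabp4 (probe 8757), the fatty acid carrier of adipocytes, had nearly equal group means. Its level was 22, 30.6 and 25.8 on the static arrays and 24.7, 27.1 and 27.7 on the microgravity arrays. The microgravity values all lay inside the static range. The means were 26.1 ± 4.35 and 26.5 ± 1.57 (SD, n = 3), and the log2 change was 0.03 (SE 0.16, 95% interval -0.36 to 0.42, limma adjusted p = 0.985).

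Plin2 (probe 3253) encodes perilipin 2, a coat protein of lipid droplets found in many cell types. Its level was 6.3, 6.04 and 4.4 in static cells and 4.7, 4.6 and 6.42 in simulated microgravity. The values formed a higher set of 3 arrays (static 1, static 2 and microgravity 3) and a lower set of 3, which cut across the groups. The log2 change was -0.09 (SE 0.21, 95% interval -0.59 to 0.41).

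Cd36 (probe 3455), a fatty acid transporter, and Adipoq (probe 667), which encodes the hormone adiponectin, were at or near the floor. Cd36 was 0.0812, 0.132 and 0.0434 in static cells and 0.0605, 0.173 and 0.0494 in simulated microgravity, with 2 of 3 values of each group under the floor. Adipoq was 0.114, 0.148 and 0.0667 in static cells and 0.063, 0.152 and 0.0858 in simulated microgravity, with 1 static and 2 microgravity values under the floor. In both genes the highest value of each group was on its replicate 2 array, the arrays with the fewest values under the floor. The log2 changes of 0.13 (SE 0.25) and -0.05 (SE 0.23) rest on floored values and give no bound on a difference. With no floor they were 0.05 and -0.15.

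Of the 9 genes, 7 had a 95% interval within a 2-fold change either way, Cd36 and Adipoq among them with that limit. The exceptions were Lpl, whose interval reached -1.15, and Cebpa, whose interval reached 1.11.

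Lpl, picked for its own values, was set against the genes that stayed above the floor on every array, as a description with no test. The log2 change of Lpl minus that of the other gene was -0.81 for Fabp4, -0.69 for Plin2, -0.74 for Cebpd, -0.78 for Cebpb, -1.14 for Cebpa and -0.36 for Pparg. All 6 differences use the same Lpl values. The log2 ratio of Lpl to the other gene overlapped between the groups for Pparg and did not for the other 5. For Plin2 the margin was narrow, with -0.28 on microgravity 2 and -0.21 on static 2 relative to the static mean. The groups of Lpl alone did not overlap, so the 5 separations are not independent results.

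**Figure D3:**
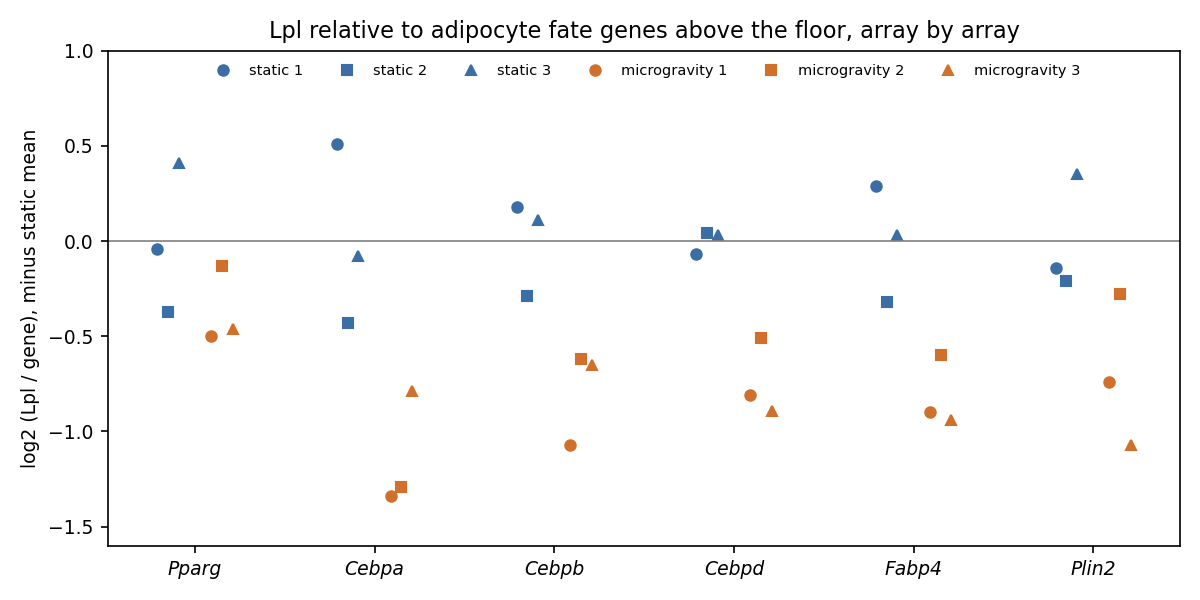
Log2 ratio of Lpl to each gene that stayed above the floor, on every array, minus the mean of that ratio over the 3 static arrays. Blue marks are static and orange marks are simulated microgravity, with shapes for replicates. Lpl was picked for its own values, and the plot describes how its ratio to each of the 6 genes varies between arrays, with an overlap of the groups for Pparg.

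The genes whose pattern over the 6 arrays was most like that of Pparg were the tubulin-binding protein gene Stmn1 (Pearson r = 0.988), Ostc and Lman1 (both 0.983), Tlr9 (0.975) and Fbxo6 (0.973). They were the highest of 4533 other named probes above the array median, 25 of which had r over 0.95, and all of them share the same 6 arrays and their scaling. Stmn1 stood at 48.1, 59 and 38.9 on the static arrays and at 35.1, 36.3 and 37.8 on the microgravity arrays. Like Pparg it was highest on static 2, then static 1, with the other 4 arrays close together.

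Other genes of the pathway were taken from lists, in which some genes recur. Of 32 probes for genes that promote adipogenesis (Klf9 had 2), 0 rose, 0 fell and 32 did not pass, with 17 lower and 15 higher values and a median log2 change of -0.01. The zinc finger gene Egr2, which acts upstream of C/EBPβ, averaged 6.95 ± 1.03 in the static group and 4.83 ± 0.782 in simulated microgravity (SD, n = 3, limma adjusted p = 0.339). The nuclear receptor coactivator gene Ncoa1 had a log2 change of 0.55 (SE 0.28), and the brighter Klf9 probe one of 0.48 (SE 0.26). For the dimmer Klf9 probe it was 0.15 (SE 0.39).

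Of 22 probes for genes that restrain adipogenesis, 0 rose, 0 fell and 22 did not pass, with a median log2 change of -0.13. The growth factor gene Tgfb1 had 0.397 and 0.548 on static 1 and 3 and 1.3 and 1.6 on microgravity 1 and 3, with empty cells on both replicate 2 arrays (log2 change 1.63, SE 0.32, limma adjusted p = 0.174). The microgravity values lay above the static ones, from 2 arrays a group. Klf2, which represses Pparg, averaged 45.4 ± 8.93 in the static group and 30.2 ± 6.5 in simulated microgravity (SD, n = 3, limma adjusted p = 0.403). Wnt10b, which favours osteoblasts over adipocytes, had 1.14 and 1.04 on static 1 and 3 and 0.609 and 0.749 on microgravity 1 and 3, and was also empty on both replicate 2 arrays (limma adjusted p = 0.505).

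Of 21 probes for fatty acid handling and lipid droplets, 0 rose, 0 fell and 21 did not pass, with a median log2 change of -0.05. Fabp3, the heart-type fatty acid carrier, had 4.81, 5.39 and 4.36 in static cells and 2.76, 3.18 and 3.75 in simulated microgravity, without overlap (log2 change -0.59, SE 0.17, limma adjusted p = 0.251). Plin3, a perilipin of nascent droplets, had a log2 change of -0.51 (SE 0.22), and Dgat2, which completes triglyceride synthesis, had one of 0.52 (SE 0.22). Neither gene's groups overlapped, with Plin3 lower and Dgat2 higher in simulated microgravity (limma adjusted p = 0.464 and 0.468). Plin4, an adipocyte perilipin named after its values were seen, had 0.878, 1.33 and 0.81 in static cells and 0.272, 0.418 and 0.249 in simulated microgravity. Its microgravity values all lay below its static values (log2 change -1.69, SE 0.31, limma adjusted p = 0.0983). It passed with no floor (limma adjusted p = 0.0483) and with array weights (0.0458), and did not pass in 14 of 16 alternatives. Its limma adjusted p-values ran from 0.0458 to 0.365 over the 16. Perilipins 2, 3 and 4 had log2 changes of -0.09, -0.51 and -1.69, with 0 of 3 past the threshold.

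Of 9 adipokine probes, 0 rose and 0 fell, with a median log2 change of 0.08. Nampt, an enzyme of NAD synthesis that is also secreted, had 8.17 ± 1.14 and 9.84 ± 1.59 (SD, n = 3). The acute-phase protein gene Saa3 had 152 ± 14.6 and 147 ± 33 (SD, n = 3), and C1qtnf1, an adiponectin relative, had 1.5 ± 0.411 and 1.4 ± 0.435 (SD, n = 3).

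On the osteoblast side, 19 of 25 listed regulators and markers had a probe, and Runx2, Sp7, Bglap and Spp1 were not among the 19. Of the 19, 3 fell, 0 rose and 16 did not pass, with a median log2 change of -0.25. Over all probes, 0.187% passed with lower values and 0.0887% with higher ones. The list was chosen with earlier results of these data known. The 3 that fell were Pth1r, the receptor for parathyroid hormone, Alpl, the alkaline phosphatase of early osteoblasts, and the matrix proteoglycan gene Omd. Alpl stood at 2.43, 2.7 and 3.42 on the static arrays and at 0.592, 0.687 and 0.518 on the microgravity arrays (log2 change -2.25, SE 0.22, limma adjusted p = 0.0295). Pth1r stood at 5.77, 5.27 and 4.96 against 0.967, 1.06 and 1.15 (log2 change -2.34, SE 0.16, limma adjusted p = 0.0194). Their log2 changes stayed about as large with any 1 array left out, at -2.39 to -2.27 for Pth1r, -2.35 to -2.11 for Alpl and -2.70 to -2.34 for Omd. None of the 3, and 0 of all probes, passed without static 1, 2 or 3, or without microgravity 1, 2 or 3, each left out alone (limma adjusted p = 0.0613 to 0.201), or with the replicate number as a block (0.245). Among probes above the array median in a group, periostin was next by p (Postn, log2 change -0.96, limma adjusted p = 0.093). Col1a2 (-1.20, limma adjusted p = 0.363) and Sparc (-0.54, limma adjusted p = 0.457) followed, none past the threshold. Bmp2, below the array median in both groups, had a smaller p than Sparc (log2 change -0.31, limma adjusted p = 0.453).

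**Figure D4:**
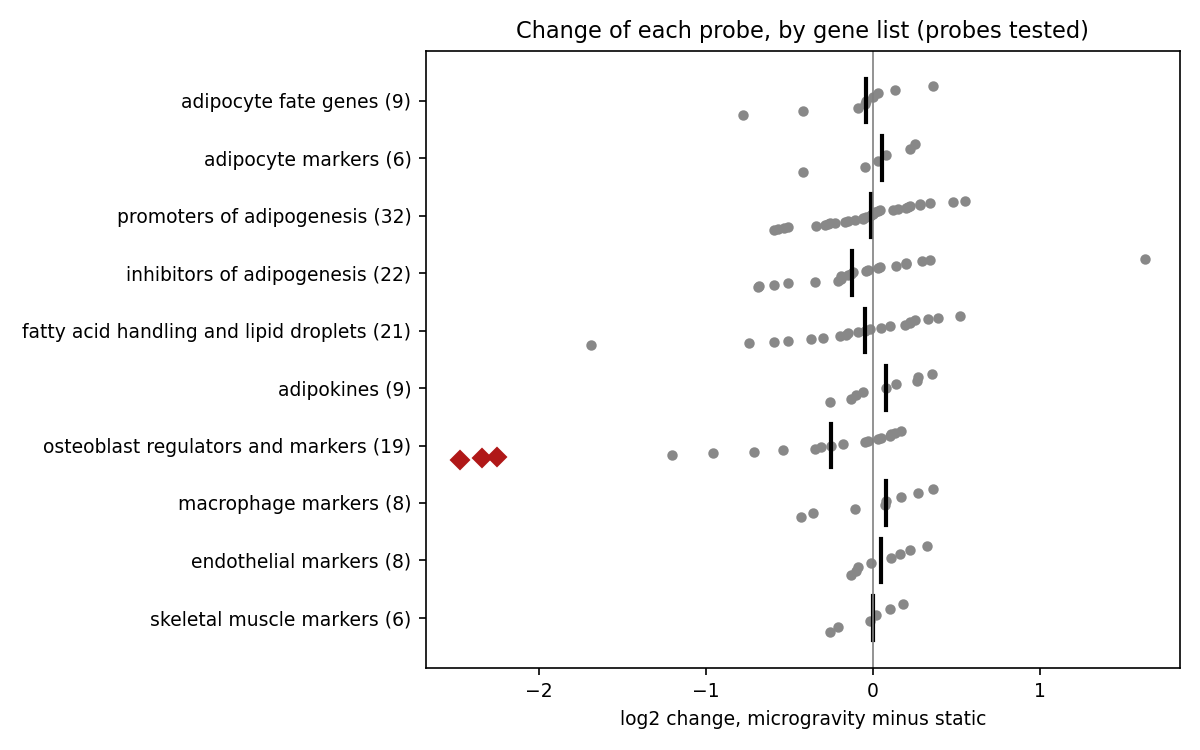
Log2 change of every probe tested, simulated microgravity minus static, by gene list, with the number of probes in brackets. Grey points did not pass an adjusted p of 0.05, red diamonds did (Alpl, Pth1r and Omd), and black bars are medians. The medians of the adipocyte lists lie between -0.13 and 0.08, and that of the osteoblast list is -0.25. All lists were chosen with earlier results of these data known.

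Lpl, Cd36 and Fabp4 are also made by macrophages, and Cd36 and Fabp4 by capillary endothelium, so markers of other cell types were read on the same arrays. Of 12 macrophage markers, 10 had a probe and 8 could be tested, of which 0 rose and 0 fell. The summed level of these 8 was 15.2 to 20.1 on static arrays and 11.2 to 18.7 on microgravity arrays, most of it from Cd14 (13.1 ± 2.34 and 10.5 ± 3.39, SD, n = 3). Lyz2 had 2.52 ± 0.463 and 2.32 ± 0.218 (SD, n = 3), and Lyz1 1.57 ± 0.566 and 1.28 ± 0.688 (SD, n = 3). Of the dimmer markers, Ptprc, Itgam and Tyrobp had group means of 0.043 to 0.0728. Static and microgravity means were 0.0759 and 0.103 for Aif1, 0.109 and 0.14 for Fcer1g, and 0.286 and 0.353 for Msr1. Fcer1g, with 1 static value under the floor, was higher in simulated microgravity without overlap (limma adjusted p = 0.38). Adgre1 had a value on 1 array per group, 0.0933 on static 2 and 0.119 on microgravity 2. The 8 endothelial probes summed to 0.96 to 1.03 on static and 0.744 to 1.32 on microgravity arrays, and the 6 skeletal muscle probes to 0.603 to 0.794 and 0.492 to 0.907, with 0 called in either list.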

How the data were processed

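Expression arrays of 6 samples were analysed, 3 static and 3 in simulated microgravity. The deposited table holds linear intensities, which the authors appear to have scaled, since the array medians were 0.9085 to 0.9273; no source used here gives the array maker, the scanner or the scaling. Each array was divided by its median, floored at 0.1, and log2 was taken. A probe was kept if each group had at least 2 values and some array exceeded the floor (10146 of 10500). Groups were compared with limma 3.58.1 in R 4.3.3 (lmFit, eBayes with an intensity trend, 2-sided), with Benjamini-Hochberg adjustment over all probes and a threshold of 0.05. The fit was tested on simulated data. Fold changes are on the floored log2 scale, and those of dim probes depend on the floor. Precision is limited by 3 arrays per group.

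Symbols came from the platform annotation (8983 probes with 1 symbol, 1 with several, 1516 with none), and 8975 were found by gene identifier in the GRCm38.p6 gene table. Every probe was kept separately. The genes and lists were chosen with earlier results of these data known. Named from each list were all probes past the threshold and the next 3 by p among those above the array median in a group. Genes like Pparg were the 5 with the highest correlation. Alternatives were other normalizations, floors, filters, variance models and array weights, a replicate block, and leaving out arrays. No probe coordinates are given.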

Additional observations from a re-analysis of the deposited data

How the results depend on the processing

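The 28 probes past the threshold became 54 with quantile normalization and 56 with cyclic loess (12 higher and 44 lower, against 9 and 19). The count was 53 with the floor at 0.05, 40 with the floor at 0.2 and 59 with no floor. It was 54 with the dimmest 50% of probes left out, 115 with array weights and 121 at an adjusted p under 0.1. With a robust eBayes fit it was 29, and with eBayes without the trend 19. The count became 0 with the replicate block, 0 with any 1 array left out, and 0 without static 2 and microgravity 2 together, an alternative chosen after seeing the data. The adipocyte fate genes past the threshold were 1 (Lpl) with array weights, 1 (Lpl) at an unadjusted p under 0.05, and 0 in the other 17 alternatives. Their median log2 change lay between -0.09 and 0.11. Lpl (-0.94 to -0.69) and Pparg (-0.61 to -0.27) kept a negative sign and Cebpa (0.13 to 0.56) a positive one in every alternative that measured them.

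Some genes far from the threshold turned sign, and the cause was not tested. Cebpb was -0.04 with quantile and -0.06 with cyclic loess normalization, and Fabp4 was -0.02 and -0.04. Cd36 was -0.01 with the floor at 0.05. Without static 2 and microgravity 2, Plin2 was 0.06 and Saa3 0.05, while Cebpd kept its sign at -0.11. With 1 array left out the log2 changes were -0.07 to 0.11 for Cebpb, -0.10 to 0.02 for Cebpd, -0.09 to 0.15 for Fabp4, -0.13 to 0.26 for Cd36, -0.25 to 0.11 for Adipoq, -0.25 to 0.01 for Plin2, -0.35 to 0.06 for C1qtnf1, -0.24 to 0.03 for Saa3, -0.18 to 0.04 for Lyz2 and -0.78 to 0.17 for Lyz1, whose change of -0.43 turned to 0.17 without microgravity 2. Cd36 and Adipoq had no value with the floor at 0.2 or the dimmest 50% left out, Cebpa none with the latter, and Cd36 none without both replicate 2 arrays.

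Same-numbered arrays deviated from their group means with correlations of -0.21, 0.454 and -0.179 across probes, so the numbers were not taken to pair the samples. The best match of static 1 was microgravity 3 (0.661), that of static 2 was microgravity 2 (0.454) and that of static 3 was microgravity 1 (0.376). No fit was blocked on this matching. With the replicate block, which follows the numbers, the log2 change of Lpl was -0.78 (limma adjusted p = 0.323).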
